A study of Mus musculus with 6 samples.

Results

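The genes described here encode voltage-gated calcium and sodium channels, potassium channels and Hcn channels, 47 in all. They were listed by name, with earlier results of these data known. They were found on the arrays as the non-control probes whose identifier is a RefSeq accession of a listed gene. By this rule 46 of the 47 had a probe, among 36983 genes and other features in all. Scn9a had none. The study profiled whole pituitaries from 3 females homozygous null for Jmjd2a (Jmjd2a-/-, called KO) and from 3 wild-type littermates (Jmjd2a+/+, called WT), on 1 one-colour Agilent array per animal. All 6 were virgin females aged 8 weeks on a C57BL6 background. All, controls included, had been brought into oestrus by soiled bedding of a stud male (the Whitten effect) and were killed 24 h later. The current name of Jmjd2a is Kdm4a, and its product is a demethylase of lysines in histone H3. The question addressed here is which channel genes were detected in the pituitary and how their RNA compared between KO and WT.

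Endocrine cells of the anterior pituitary are excitable and fire action potentials spontaneously. Calcium enters through voltage-gated channels and drives hormone secretion, while sodium channels and Hcn channels push the membrane towards firing. Potassium channels repolarise the cell or hold it at rest, and the G protein-gated inward rectifiers among them are opened by inhibitory receptors such as those for dopamine and somatostatin.

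Values are log2 intensities relative to the 75th percentile of the same array, so 0 is the level of that percentile. They serve to compare 1 probe between animals, not different genes. A log2 fold change is the KO mean minus the WT mean, given with its standard error (SE), and p-values come from limma with Benjamini-Hochberg adjustment over all 26887 genes and features tested. Between 34634 and 40567 of the 55681 probes of an array were well above background. No spot was saturated, and all arrays lay on 1 slide read in 1 scan. Kdm4a itself was lower on every KO array than on any WT array, at 65.0% of WT (log2 fold change -0.62 ± 0.14, limma adjusted p = 0.240). The labels do not say which part of the gene is deleted. The defining hormone genes of the gland, among them Prl, Gh, Pomc, Lhb and Tshb, were detected on all arrays. WT replicate 3 stood apart in markers of 2 other cell types. Its mean log2 level of the 8 Schwann cell and oligodendrocyte markers, all well above background, was 0.78. WT replicates 1 and 2 had -0.41 and -0.09, and the KO arrays lay between -0.43 and -0.30. Its mean level of the 5 neutrophil markers was 0.39, where WT replicates 1 and 2 had -2.41 and -2.17 and the KO arrays -3.18 to -2.48. Only 3 of these 5 markers were well above background on all arrays, so the means include dim values. The mean level of the neutrophil list did not overlap between the groups, although WT replicate 1 (-2.41) and KO replicate 3 (-2.48) nearly touched. Neither did that of the 4 corticotrope markers, at 2.13 to 2.49 in WT and 1.89 to 1.99 in KO. Of these, the receptor genes Crhr1 (log2 fold change -0.51) and Avpr1b (-0.58) did not overlap, while Pomc (-0.23) and Tbx19 (-0.16) did. Taken singly, 20.6% of all genes and features did not overlap. The part of these cell types in the channel results was not tested. Values without this array are given below where it changes a value by more than 1.5 times for a gene whose arrays are listed and whose log2 fold change exceeds its SE.

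Most of the channel genes were detected. At least 1 probe was well above background on 3 or more arrays for 40 of the 47 genes, and on all 6 arrays for 39. The exception was Cacnb4, which was measured on 2 WT and 3 KO arrays. This is 87% of the 46 genes with a probe, against 78.5% of all genes with a symbol on the array. Counted over probes, 61 of the 70 channel probes passed. The 6 genes with a probe that did not pass were Cacna1b and Cacna1e, the pores of N-type and R-type calcium channels, Kcnq3 and Kcnq5, which form M-current potassium channels, Kcnn1, a small-conductance calcium-activated potassium channel, and the pacemaker channel gene Hcn4. Cacna1b, Kcnq3 and Kcnq5 were not well above background on any array. Cacna1e was well above background on KO replicate 1 alone, Hcn4 on KO replicate 2 alone and Kcnn1 on WT replicate 2 alone. No gene was measured on all arrays of 1 group and on none of the other.

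None of the 40 channel genes tested passed the adjusted threshold of 0.05 in the comparison of KO with WT, and 0 of the 26887 genes and features tested did (0%). The lowest adjusted p of a channel gene was 0.344 in limma with Benjamini-Hochberg adjustment. At an unadjusted p under 0.05 limma had 3 of the 40 (7.5%), 1 higher in KO (Cacna2d1) and 2 lower (Cacna1c and Kcnj5). Over all genes and features this share was 12.8%, with 3.99% higher and 8.81% lower. The 3 KO arrays did not overlap the 3 WT arrays for 5 channel genes (12.5%), against 20.6% of all genes and features. Both shares lay below the background of the array. Log2 fold changes were above 0 for 20 channel genes (50%) and below 0 for 20. Above 0 were 39.3% of all genes and features, and 45.3% of the features with a symbol. The median was 0.00 for the channel genes, -0.07 over all genes and features and -0.03 over the features with a symbol. The changes of the channel genes ran from -0.84 (Kcnj9) to 0.39 (Cacna1d). The median size of the change, ignoring its sign, was 0.198 for the channel genes and 0.193 over all. The sign of a small change depends on the scaling: centring each array on its median raised all log2 fold changes by 0.18, which put 28 channel genes above 0.

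**Figure D1:**
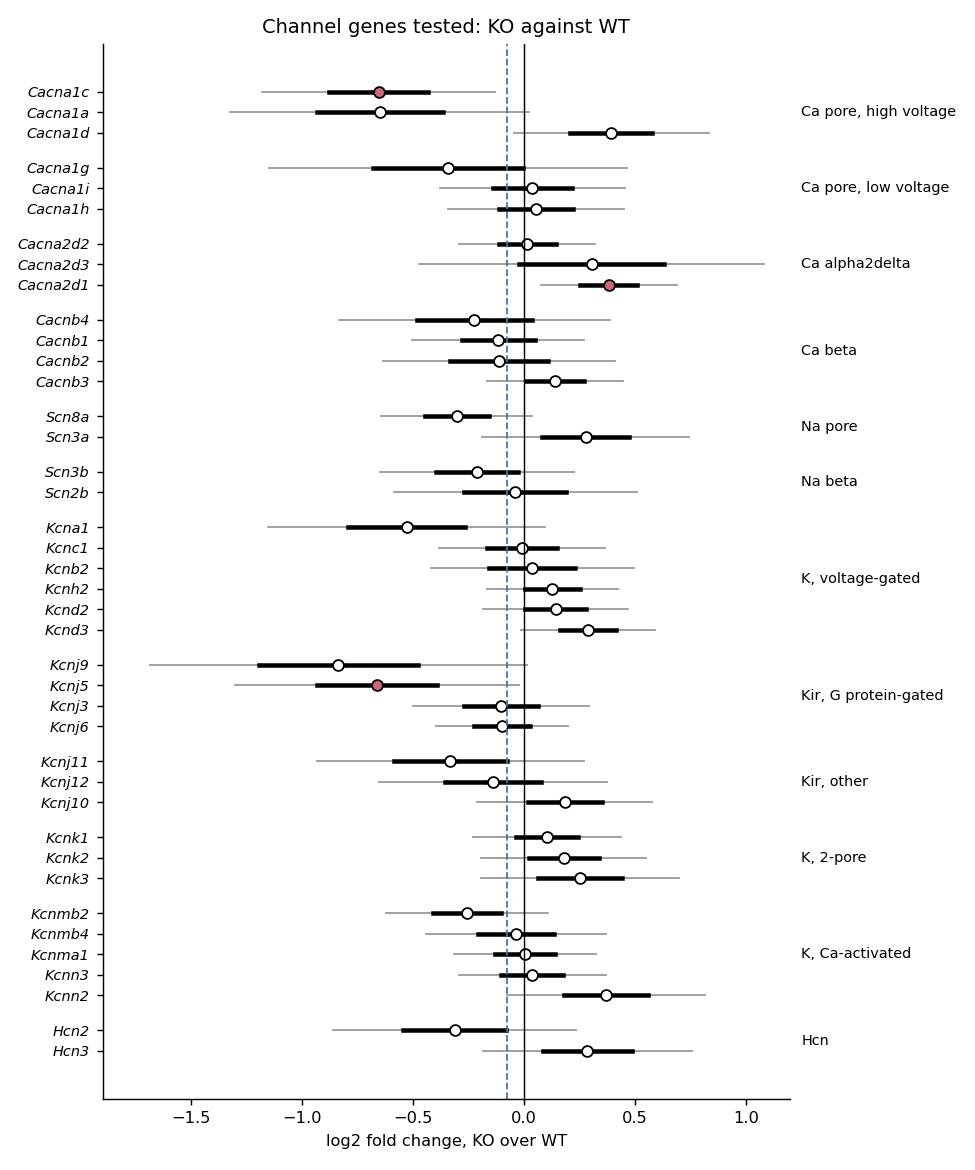
Log2 fold changes (KO over WT) of the 40 channel genes tested, grouped by role, with thick bars for the standard error and thin bars for the 95% confidence interval. Filled points are the 3 genes at an unadjusted p under 0.05, the solid line is 0 and the dashed line the median of all genes and features (-0.07). The Kir, G protein-gated genes lie left of 0 and the 2-pore genes right of it, and 3 of the 40 thin bars leave out 0.

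Among the calcium channel pores that open at strong depolarisation, 3 of 5 were tested. Cacna1c, the pore of the main L-type channel, read -4.01, -3.44 and -4.08 on the WT arrays and -4.78, -4.24 and -4.47 on the KO arrays. All 3 KO arrays were lower than every WT array. KO stood at 63.5% of WT, a log2 fold change of -0.66 ± 0.22 (95% confidence interval -1.18 to -0.13, limma adjusted p = 0.344). The probe is dim, and with the normexp background correction the log2 fold change was -0.29.

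Cacna1d, the L-type pore that opens at more negative voltages, lay on the other side of 0. It read -1.28, -0.66 and -1.03 in WT and -0.72, -0.64 and -0.43 in KO, so that WT replicate 2 lay among the KO arrays. Its log2 fold change was 0.39 ± 0.19 (limma adjusted p = 0.419), and a dimmer probe of the gene gave 0.02 ± 0.16. Without WT replicate 1 the value was 0.25. Cacna1a, the pore of P/Q-type channels, read 1.05, 1.31 and 2.14 in WT and 0.65, 1.03 and 0.86 in KO. The groups did not overlap, although WT replicate 1 and KO replicate 2 nearly touched, and WT replicate 3 was far above the rest. The log2 fold change of -0.65 ± 0.28 (limma adjusted p = 0.396) was the same on the second probe, also -0.65 ± 0.28. Without WT replicate 3, the array with the high Schwann cell and neutrophil markers, the log2 fold change of Cacna1a was -0.33.

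The 3 pores of T-type channels, which open at low voltage, were all tested, with log2 fold changes of -0.34 ± 0.34 (Cacna1g), 0.04 ± 0.18 (Cacna1i) and 0.05 ± 0.17 (Cacna1h). Cacna1g is singled out here after its values were seen, for its spread in WT. It read -1.51, -0.43 and -0.12 on the WT arrays and -0.97, -1.14 and -0.98 on the KO arrays. The WT arrays thus lay on both sides of all 3 KO arrays, and the log2 fold change was -0.75 without WT replicate 1, -0.21 without WT replicate 2 and -0.06 without WT replicate 3. Its second probe had the same order of WT arrays, at -2.11, -0.45 and -0.20. The second probes of Cacna1h and Cacna1i gave values of the opposite sign, -0.17 ± 0.18 and -0.22 ± 0.16.

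The auxiliary alpha2delta subunits sit outside the membrane and increase the number of calcium channels at the cell surface. Cacna2d1, which encodes the first of them and the binding site of gabapentin, had the smallest p of all channel genes. It read 2.37, 2.68 and 2.54 on the WT arrays and 2.95, 2.85 and 2.94 on the KO arrays. Every KO array was above every WT array, and the KO arrays lay within 0.10 of each other. The log2 fold change was 0.38 ± 0.13, or 130% of WT (95% confidence interval 0.08 to 0.69, limma adjusted p = 0.344). A second probe read 1.85, 2.38 and 1.96 in WT and 2.45, 2.48 and 2.66 in KO, again without overlap, for a log2 fold change of 0.46 ± 0.17. On slide row 1 alone, with 2 arrays per group, the value was 0.49 ± 0.17, and with the row as a block it was 0.38 ± 0.15. The other listed alpha2delta genes had log2 fold changes of 0.01 ± 0.13 (Cacna2d2) and 0.31 ± 0.33 (Cacna2d3). Cacna2d4, tested among the further channel genes below, had -0.03 ± 0.17. Cacna2d3 ranged 2.35-fold among the WT arrays, and its log2 fold change was 0.03 without WT replicate 3 and 0.65 without WT replicate 2.

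The window upstream of Cacna2d1 is shown because this gene had the smallest p. It holds the 250 bases that end before the RefSeq start of the gene, at chr5:15934441-15934690 of GRCm38.p6 on the plus strand. Capitals mark the GC box, GGGCGG or its reverse complement CCGCCC, and matches that touch or overlap form 1 run of capitals.

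Cacna2d1: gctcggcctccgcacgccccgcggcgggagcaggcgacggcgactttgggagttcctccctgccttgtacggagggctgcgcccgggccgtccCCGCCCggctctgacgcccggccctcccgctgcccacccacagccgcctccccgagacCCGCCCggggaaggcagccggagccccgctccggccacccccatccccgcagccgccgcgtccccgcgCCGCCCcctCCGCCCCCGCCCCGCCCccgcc

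This window held 6 GC boxes and 36 CG dinucleotides, and 82.4% of its bases were G or C. As many CG dinucleotides or more occurred in 2.58% of the 32851 windows of this length in the table. Such windows were at hand for 35 of the 47 channel genes, 50 windows in all. Their median was 14 CG dinucleotides, against 6 over all windows. A GC box on either strand was in 22 of the 50 (44%) against 32.7% of all windows, and TATAAA on either strand in 2 of the 50 (4%) against 12.4%. The motif TGACGTCA was in 0 of the 50, and in 1.55% of all windows. No measurement of Kdm4a binding or histone methylation belongs to these arrays.

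The beta subunits bind the calcium channel pore from the cytosol and aid its transport. All 4 were tested, with log2 fold changes from -0.22 (Cacnb4) to 0.14 (Cacnb3) and adjusted p from 0.637 to 0.830. Cacnb2 is given with its arrays because its probes differ, a choice made after the values were seen. Its brighter probe read -2.42, -1.80 and -2.39 in WT and -2.17, -2.62 and -2.15 in KO. The groups overlapped throughout, and the log2 fold change was -0.11 ± 0.22. The dimmer probe read -3.52, -2.99 and -3.28 in WT and -3.91, -3.66 and -3.62 in KO, without overlap, for -0.47 ± 0.17 (limma adjusted p over all 36739 probes = 0.377).

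Sodium channels carry the upstroke of the fast action potential. Scn8a, a pore of neurons, read 1.64, 1.31 and 1.67 in WT and 1.34, 1.19 and 1.18 in KO. WT replicate 2 lay among the KO arrays. The log2 fold change was -0.30 ± 0.14 (limma adjusted p = 0.420), and a second probe gave -0.26 ± 0.24. Scn3a, a pore known best from the developing nervous system, read 0.91, 1.55 and 0.94 in WT and 1.51, 1.30 and 1.42 in KO. Here WT replicate 2 was the highest of all arrays and the other WT arrays the lowest. The log2 fold change of Scn3a was 0.28 ± 0.20, its 3 probes lay between 0.17 and 0.28, and it is named after its values were seen. It was 0.17 without WT replicate 1, 0.18 without WT replicate 3 and 0.49 without WT replicate 2. The auxiliary beta subunits Scn2b and Scn3b had -0.04 ± 0.23 and -0.21 ± 0.18, the latter -0.03 without WT replicate 1 and -0.36 without WT replicate 2.

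Of the 8 voltage-gated potassium channel genes, 6 were tested. Kcnd3, a pore of the transient A-type current, read 2.95, 3.18 and 2.98 in WT and 3.24, 3.42 and 3.32 in KO. Each KO array was above each WT array, for a log2 fold change of 0.29 ± 0.13 (limma adjusted p = 0.396). The other Kcnd3 probe, matched to a different transcript, gave -0.05 ± 0.16. Kcna1, a pore of a low-threshold delayed rectifier, read -2.48, -2.25 and -1.52 in WT and -2.50, -2.46 and -2.87 in KO. WT replicate 3 was the highest array, WT replicate 1 lay among the KO arrays, and the log2 fold change was -0.53 ± 0.26 (limma adjusted p = 0.435). Without WT replicate 3 it was -0.25. In the authors' value table it was -0.22. The remaining 4 were Kcnd2, a second A-type pore (0.14 ± 0.14), Kcnh2, the erg channel (0.13 ± 0.12), the delayed rectifier Kcnb2 (0.04 ± 0.19) and Kcnc1, a pore of fast-spiking cells (-0.01 ± 0.16). The other Kcnc1 probes were lower, at -0.15 ± 0.15 and -0.51 ± 0.26.

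All 4 genes of the G protein-gated inward rectifiers (GIRK channels, Kcnj3, Kcnj5, Kcnj6 and Kcnj9) had a log2 fold change below 0, though Kcnj3 and Kcnj6 were above 0 with median centring and in the authors' value table, and Kcnj6 also with quantile normalization. Their median was -0.38. Kcnj9 read -3.71, -2.22 and -3.08 in WT and -4.04, -3.88 and -3.60 in KO. WT replicate 1 lay among the KO arrays, and the WT arrays ranged 2.81-fold, the widest range of any channel gene. KO stood at 56.0% of WT, a log2 fold change of -0.84 ± 0.36 (limma adjusted p = 0.393). It was -0.45 without WT replicate 2, -1.19 without WT replicate 1 and -0.44 with the normexp correction.

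Kcnj5 read -2.27, -3.19 and -3.25 in WT and -3.63, -3.43 and -3.63 in KO. The KO arrays were the 3 lowest, and WT replicate 1 was far above the other WT arrays. This put KO at 63.2% of WT, a log2 fold change of -0.66 ± 0.27 (limma adjusted p = 0.382). Without WT replicate 1 it was -0.34, and with the normexp correction -0.36. Kcnj3, the subunit with which the others commonly assemble, read -2.37, -1.98 and -2.27 in WT and -2.49, -2.07 and -2.38 in KO. The groups overlapped, the log2 fold change was -0.10 ± 0.17 and a second probe gave 0.19 ± 0.23. Kcnj6, printed as 10 spots of 1 probe on each array, read -2.75, -2.82 and -3.03 in WT and -2.92, -2.99 and -2.98 in KO, for -0.10 ± 0.13. WT replicate 3 was the lowest array and the other WT arrays the highest.

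The windows upstream of Kcnj5 and Kcnj9 are shown because these GIRK genes had the values farthest from 0. They are at chr9:32344345-32344594 and chr1:172329323-172329572 of GRCm38.p6, both on the minus strand, and are printed in the direction of transcription. Capitals mark GC boxes in the first and TATAAA in the second.

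Kcnj5: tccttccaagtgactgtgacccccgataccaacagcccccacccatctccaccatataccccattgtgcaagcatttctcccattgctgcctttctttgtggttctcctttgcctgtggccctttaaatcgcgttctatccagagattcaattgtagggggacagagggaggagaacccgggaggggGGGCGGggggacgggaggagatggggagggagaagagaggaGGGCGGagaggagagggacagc

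Kcnj9: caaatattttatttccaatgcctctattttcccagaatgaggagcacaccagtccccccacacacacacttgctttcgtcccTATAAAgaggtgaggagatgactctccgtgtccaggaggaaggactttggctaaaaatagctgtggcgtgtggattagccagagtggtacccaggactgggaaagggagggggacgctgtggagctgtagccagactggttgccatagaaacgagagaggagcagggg

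The Kcnj5 window held 2 GC boxes and 7 CG dinucleotides, and the Kcnj9 window 0 GC boxes, 1 TATAAA and 5 CG dinucleotides. As many CG dinucleotides or more were in 46.3% and 55.6% of all windows. Both lay near the middle of the table, unlike the window of Cacna2d1.

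Of the other inward rectifiers, Kcnj11, the pore of ATP-sensitive channels, had a log2 fold change of -0.33 ± 0.25. Kcnj10, a channel of glia, had 0.18 ± 0.17 and Kcnj12, a strong rectifier, -0.14 ± 0.22. The 3 listed genes of the K2P family, which form leak channels, were all above 0. They had 0.10 ± 0.14 for Kcnk1, 0.18 ± 0.16 for the mechanosensitive Kcnk2 and 0.25 ± 0.19 for the acid-sensitive Kcnk3 (limma adjusted p from 0.567 to 0.746). These 3 signs were kept in all 18 alternatives run per gene, but the sizes rest on single arrays. Without WT replicate 1 the values were 0.02 for Kcnk1 and 0.08 for Kcnk2, and without WT replicate 3 that of Kcnk3 was 0.08.

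The BK channel, opened by calcium and voltage together, is prominent in pituitary cells, where it shapes bursts of action potentials. Its pore gene Kcnma1 read -0.49, -0.19 and -0.25 in WT and -0.20, -0.32 and -0.40 in KO. The groups overlapped fully, for a log2 fold change of 0.00 ± 0.14 (95% confidence interval -0.32 to 0.32), and its 3 probes lay between 0.00 and 0.22. Kcnmb2, a beta subunit that makes the channel inactivate, read 0.09, -0.14 and -0.37 in WT and -0.51, -0.32 and -0.35 in KO. WT replicate 3 lay among the KO arrays, the log2 fold change was -0.26 ± 0.15 (limma adjusted p = 0.495), and a second probe gave -0.02 ± 0.29. It was -0.14 without WT replicate 1 and -0.08 with median centring. Kcnmb4, a beta subunit that slows gating, read 3.53, 3.62 and 3.10 in WT and 3.27, 3.52 and 3.35 in KO. These overlapped, at -0.03 ± 0.17, and at -0.19 without WT replicate 3. Kcnn2, a small-conductance channel opened by calcium alone, read -0.05, 0.52 and 0.13 in WT and 0.47, 0.44 and 0.80 in KO. Only WT replicate 2 reached the KO arrays, and the log2 fold change was 0.37 ± 0.19 (limma adjusted p = 0.438). Without WT replicate 1 it was 0.24. Kcnn3 had 0.04 ± 0.14.

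Hcn channels open on hyperpolarisation and pass a depolarising current. Hcn2 read 6.75, 5.85 and 6.23 in WT and 6.09, 5.95 and 5.84 in KO. WT replicate 1 was the highest array, WT replicate 2 lay among the KO arrays, and the log2 fold change was -0.31 ± 0.23 (limma adjusted p = 0.564). A dimmer probe gave 0.09 ± 0.14, and the brighter one gave -0.08 without WT replicate 1 and -0.53 without WT replicate 2. Hcn3 read -3.28, -2.61 and -3.10 in WT and -2.90, -2.63 and -2.60 in KO. WT replicate 2 lay among the KO arrays, for 0.29 ± 0.20 (limma adjusted p = 0.543), and with the normexp correction the value was -0.05. It was 0.15 without WT replicate 1 and 0.48 without WT replicate 2. In whole glands, fewer cells of a type and less RNA per cell cannot be told apart for any of these genes.

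**Figure D2:**
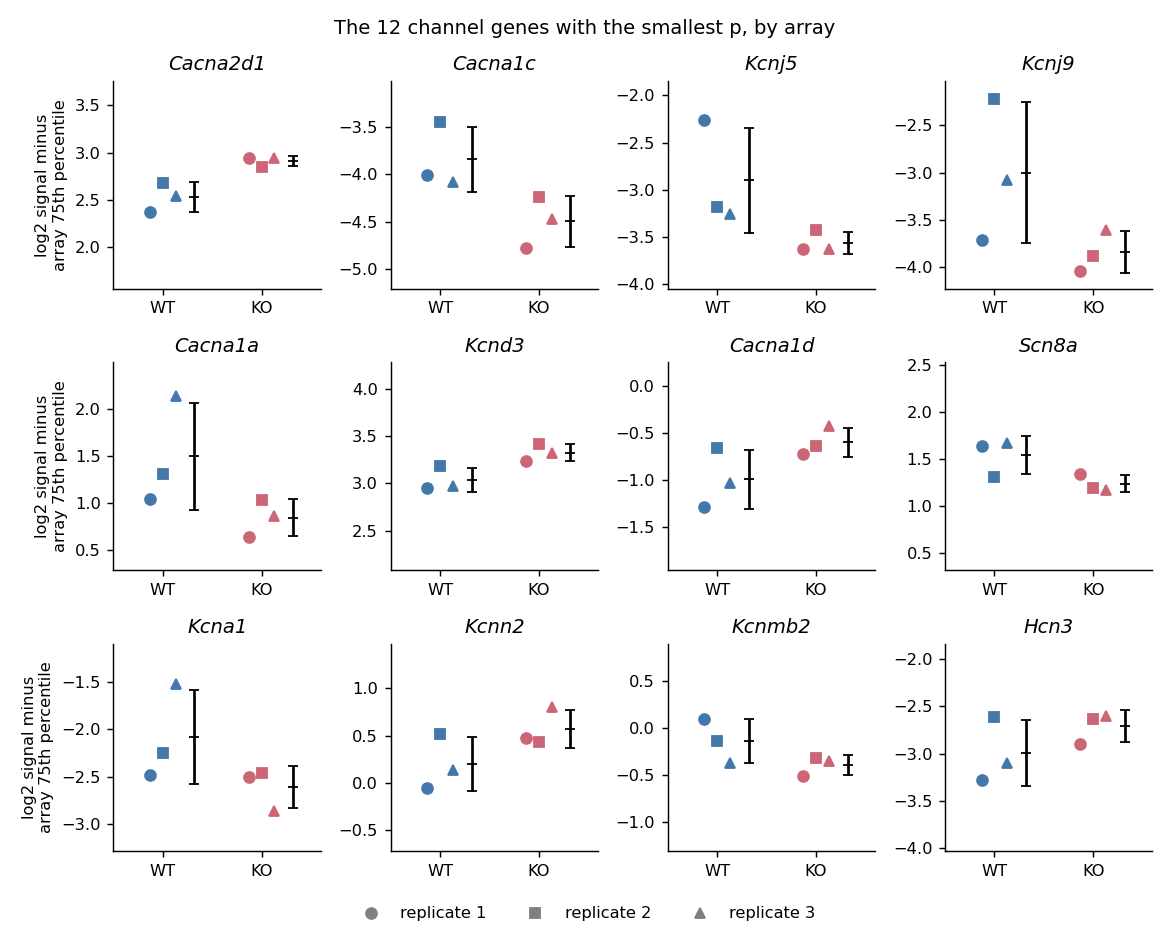
Log2 signal relative to the array's 75th percentile for the 12 channel genes with the smallest p. Each point is 1 animal, shapes mark the replicate number, bars give the mean and SD (n = 3), and every panel spans the same height. KO and WT points do not overlap for Cacna2d1, Cacna1c, Kcnj5, Cacna1a and Kcnd3, and single WT points stand far from the others for Kcnj5, Kcnj9, Cacna1a and Kcna1.

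The channel genes varied more among the WT animals than among the KO animals. The median SD was 0.284 (log2, n = 3) in WT and 0.154 in KO, against 0.226 and 0.146 over all genes and features. The WT SD was the larger for 35 of the 40 channel genes (87.5%), against 69.7% of all genes and features. The WT arrays spanned more than 1 log2 unit for 4 channel genes (Kcnj9, Cacna1g, Cacna2d3 and Cacna1a). The KO arrays did so for 0, with a largest span of 0.56 (Kcnj12). This difference in spread was not tested.

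The WT animals also differed in which way they deviated. WT replicate 2 was the highest of the 6 arrays for 12 of the 40 channel genes (30%, against 20.7% of all genes and features) and the lowest for 1 (2.5%, against 12.1%). WT replicate 1 was the lowest array for 13 (32.5%, against 18.1%) and WT replicate 3 for 12 (30%, against 19.3%). The median deviation of the channel genes from their own means was 0.12 on WT replicate 2, -0.11 on WT replicate 1 and -0.12 on WT replicate 3, and between -0.04 and 0.02 on the KO arrays. WT replicate 2 also had the most probes well above background (40567) and the brightest 75th percentile (intensity 311, against 170 to 303 on the others). Their part in its channel values was not tested. Without WT replicate 2, 10 of the 40 channel genes (25%) had an unadjusted p under 0.05 in limma, 7 of them higher in KO, against 20.4% of all genes and features, and 0 passed the adjustment.

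**Figure D3:**
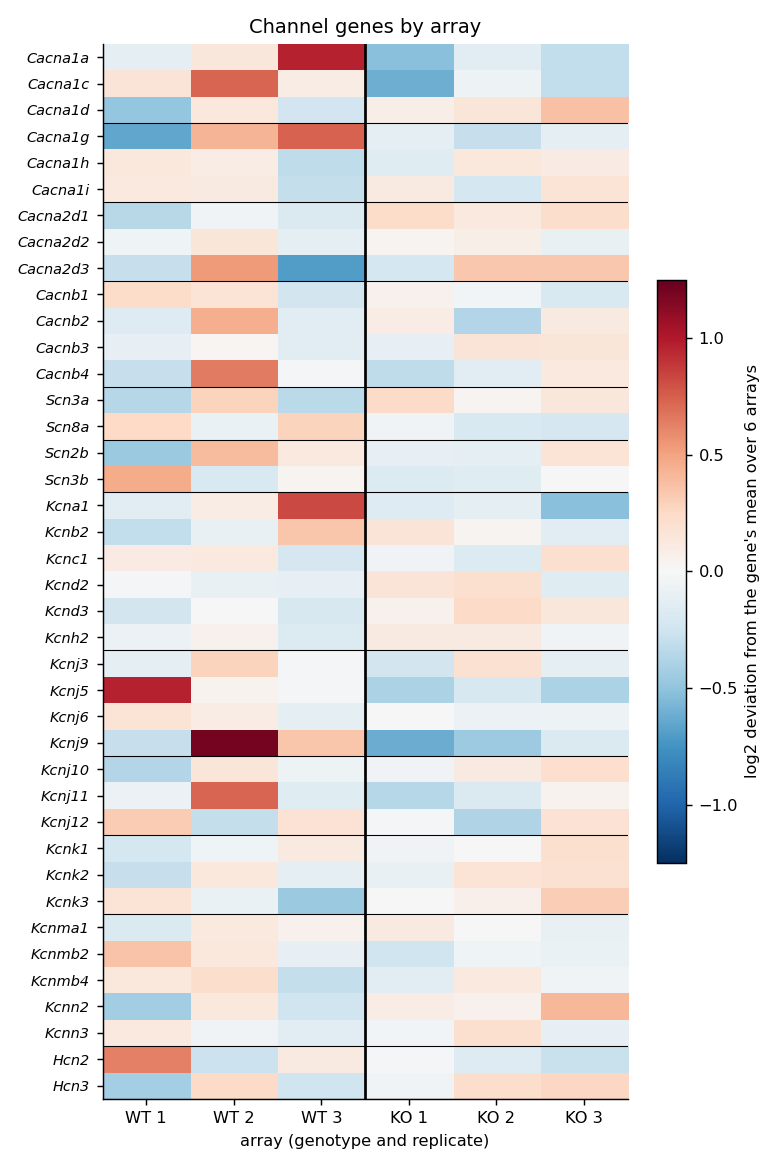
Deviation of each of the 40 channel genes from its own mean over the 6 arrays (log2), with arrays in columns and genes in rows ordered by role. The WT columns, left of the thick line, carry the strongest colours, with Kcnj5 and Hcn2 high on WT replicate 1, Kcnj9 and Kcnj11 on WT replicate 2, and Cacna1a, Cacna1g and Kcna1 on WT replicate 3.

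More than 1 probe was tested for 18 of the channel genes, 39 probes in all. All probes of a gene had the same sign for 12 of the 18. The signs differed for Cacna1h, Cacna1i, Cacna2d2, Hcn2, Kcnd3 and Kcnj3. The median gap between a gene's lowest and highest probe was 0.22 over these 18 genes, dim probes included, and the widest was 0.50 (Kcnc1). The median size of a change, 0.198, is another measure, taken on the brightest probe of each of the 40 genes. Cacna1a and Cacna2d1 had gaps of 0.00 and 0.08.

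**Figure D4:**
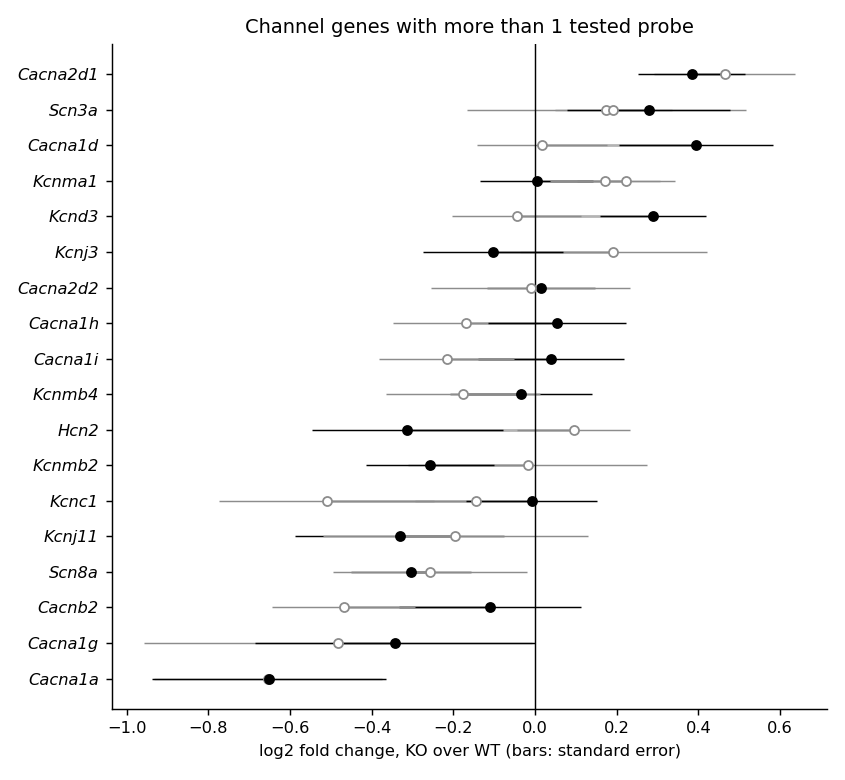
Log2 fold changes (KO over WT) with standard errors for every tested probe of the 18 channel genes with more than 1. Filled points are the brightest probe, which stands for the gene, and open points the others. The probes of Cacna1a coincide near -0.65 and both probes of Cacna2d1 lie right of 0, while those of Hcn2, Kcnd3 and Kcnj3 lie on both sides.

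Of 102 further genes of voltage-gated, potassium and associated channels, 80 were tested. This list, too, was made with earlier results of these data known. As for the genes above, 0 passed the adjusted threshold. At an unadjusted p under 0.05 limma had 18 (22.5%, against 12.8% of all genes and features), 7 higher and 11 lower in KO, and the median log2 fold change was -0.01. The groups did not overlap for 15 (18.8%), against 20.6% of all. The count of 18 was 7 (8.75%, against 10.8% of all) without WT replicate 1 and 6 (7.5%, against 9.08%) without KO replicate 1. Those were the only alternatives run per gene with a share below that of all. The share was 21.2% against 12.8% with normexp correction and 21.4% against 14.3% in the authors' value table. It was 13.8% against 7.26% without KO replicate 3 and 21.2% against 20.4% without WT replicate 2. The smallest p belonged to Kcns3, a subunit that forms no channel alone and modifies others, at -3.01, -3.44 and -3.27 in WT and -4.84, -4.62 and -4.16 in KO. All KO arrays lay below all WT arrays, for a log2 fold change of -1.30 ± 0.21 (limma adjusted p = 0.209). Only 2 of the KO arrays were well above background, and the value was -0.45 with the normexp correction.

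Kcnt1, a potassium channel opened by sodium, read -1.53, -1.12 and -1.27 in WT and -0.45, -0.38 and -0.06 in KO. It was higher on every KO array, at 201% of WT (log2 fold change 1.01 ± 0.17, limma adjusted p = 0.218). With the normexp correction it was 0.69, and in the authors' value table its adjusted p was 0.0638. The other genes named by p were lower in KO except Abcc9, the regulatory subunit of ATP-sensitive channels in vessels (0.48 ± 0.16, and 0.17 with the normexp correction). Abcc9 is also 1 of the 5 pericyte markers checked, whose mean log2 level was -1.13 to -0.75 in WT and -0.80 to -0.63 in KO, and the part of pericytes in its value was not tested. Kcnf1, another modifying subunit, had -0.57 ± 0.13, and -0.30 with normexp. Cacna1f, the L-type pore of photoreceptors, had -1.30 ± 0.43, but only -0.51 with normexp, and the authors' value table gave -0.34. The KO and WT arrays of Cacna1f overlapped. The gamma subunits Cacng8 and Cacng5, which act on AMPA receptors, had -0.84 ± 0.22 and -0.66 ± 0.23. With normexp these were -0.32 and -0.37. Cacng8 was well above background on 3 WT arrays and 2 KO arrays. Cacng5 had -0.23 in the authors' value table and -0.43 without KO replicate 1. Kcnn4, the intermediate-conductance calcium-activated channel, was well above background on 3 WT arrays and 1 KO array, so it passed the filter through WT. Its measured log2 fold change of -1.20 ± 0.40 rests on KO signals mostly not above background, and with normexp it was -0.36. The KO and WT arrays of Kcnn4 overlapped. The adjusted p-values of these 6 ran from 0.239 to 0.346 in limma, and all 8 genes kept their sign in every alternative that tested them.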

How the data were processed

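Cy3-labelled RNA was hybridised to 1 array per animal, per the labels. The spot files were deposited with intensity values (gProcessedSignal) that Agilent Feature Extraction 11.0.1.1 had corrected for background and spatial trend, per the file headers, without scaling the arrays to each other. The authors also deposited a matrix of log2 values for 26625 probes. Over its 29154 spots each column tracked the log2 median spot signal of its own array (r from 0.997), with column medians between 8.25 and 8.27, and neither label nor header states its normalization or filter. The submitters' processing notes name limma.

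Here, control and outlier spots were dropped, the log2 values of a probe's spots were averaged, and the 75th percentile was subtracted per array. A probe was kept if well above background on 3 or more arrays (36739 of 55681), and the brightest kept probe stood for its gene. Symbols came from RefSeq's GRCm38.p6 annotation, which 27656 probes matched, and upstream sequences from the RefSeq promoter table of that build. Tests were two-sided and used limma 3.58.1 (lmFit, then eBayes) under R 4.3.3 with data.table (version 1.17.8). Calls needed a Benjamini-Hochberg adjusted p under 0.05. The test was also run on simulated data with planted changes, where both groups had the same spread and independent noise. The WT arrays here spread more than the KO arrays, so that run does not show how the test behaves on these data. The number of arrays limits the precision.

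The channel genes, the further channel genes, the marker lists and the tests were chosen with earlier results of these data known. Values on each array are given for the 12 channel genes with the smallest p, and for the tested genes of the G protein-gated inward rectifier, BK and Hcn groups. Of the further channel genes, the 8 with the smallest p are named, the first 2 with their arrays. Cacna2d4, Kcnk10 and Kcnk13 are named as well, beside the listed genes of their families, a choice made after the values were seen. The rules for probes of opposite sign with 1 at an unadjusted p under 0.05, and for genes measured in only 1 group, named no gene. Of 16 marker lists, those not described in the text overlapped between the groups in their mean level. The neuron list did so with changes both ways. Of its 11 genes tested, 4 had an unadjusted p under 0.05 in limma, against 12.8% of all genes and features. Avp (-1.20) and Tubb3 (-1.21) were lower in KO, and Slc17a6 (0.89) and Gad2 (0.76) higher. None passed the adjustment, and the part of neural tissue in the channel results was not tested. The replicate numbers were not taken to pair the animals, since no label says that they mark a shared litter or day. Deviations from the group means of same-numbered KO and WT arrays had r = 0.15, -0.18 and -0.08 across features.

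As alternatives, arrays were scaled by their median or by quantiles, the background was corrected by normexp (offset 50), the authors' value table replaced the spot files, the filter was dropped or tightened to all arrays, and probes were averaged per gene or tested singly. The fit was also run with a variance trend and robust moderation, with array weights, with the replicate number or the slide row as a block, on slide row 1 alone, and without each array in turn.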

Additional observations from a re-analysis of the deposited data

How the results depend on the processing

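With 3 animals per group, 0 channel genes passed the adjusted threshold in limma under any alternative, and the lowest adjusted p of a channel gene in any of them was 0.172 (without WT replicate 2). The count at an unadjusted p under 0.05, 3 as reported, was 6 with median centring (all higher in KO; 15% against 13.6% of all genes and features), 6 with normexp correction (15% against 12.8%), 5 with probes well above background on all arrays (12.8% against 13.7%), 6 with a variance trend and robust fit (15% against 14.3%), 8 with array weights (20% against 13.9%) and 5 with each of the 61 probes alone (8.2% against 12.4%). Leaving out 1 array gave counts from 0 (without KO replicate 1, against 9.08% of all) to 10 (without WT replicate 2, 25% against 20.4%), with 6 without WT replicate 1 (15% against 10.8%) and 1 without KO replicate 3 (2.5% against 7.26%). The median log2 fold change of the channel genes was 0.17 with median centring, where that of all genes and features was 0.10, and -0.07 to 0.07 with an array left out. Of the 40 channel genes, 24 kept their sign in every alternative run per gene (21 in all 18, and 3 that the authors' value table does not hold), and 16 did not, 15 of these with a value smaller than its SE. Singly tested probes are not in this count. Over all 40, 8 signs turned with median centring, 6 with normexp correction, 5 with quantile normalization and 5 in the authors' value table. Among the genes listed by array, signs turned with median centring for Cacnb2 (0.0658), Kcnj3 (0.0738), Kcnj6 (0.0783) and Kcnmb4 (0.14), with normexp correction for Hcn3 (-0.0465) and Kcnma1 (-0.0015), in the authors' value table for Kcnj3 (0.0351) and Kcnj6 (0.028), with the mean of probes for Kcnj3 (0.0444), with quantile normalization for Kcnj6 (0.0596), with array weights for Kcnmb4 (0.023), and on slide row 1 alone for Cacnb2 (0.24). With an array left out, Cacnb2 ran from -0.22 to 0.0901, Kcnj3 from -0.22 to 0.0096, Kcnma1 from -0.087 to 0.0654 and Kcnmb4 from -0.19 to 0.0668. The cause was not tested.

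With the replicate number as a block, 3 channel genes had an unadjusted p under 0.05 (Cacna1a, Cacna1c and Kcnj9; 7.5% against 10.6% of all genes and features) and 0 passed the adjustment. The count of the further channel genes was 10 with this block (12.5%, against the same 10.6% of all). Only the numbers, and no label, pair these animals.

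Cacna1c, Kcnj5, Kcnj9 and Hcn3 are not in the authors' value table, which held 33 of the 40 channel genes tested. Dim probes moved with the background correction: the normexp values of Cacna1c, Kcnj5 and Kcnj9 were -0.29, -0.36 and -0.44.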
